A study of Mus musculus with 8 samples.

Results

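The genes described here are 6 mouse factors that shorten or destroy messenger RNA: Zfp36, Zfp36l1, Zfp36l2, Zc3h12a, Btg1 and Btg2. They were taken by gene symbol, as every probe that the platform annotation gives to one of them, out of 16593 gene symbols with a named probe. This gave 11 probes for 5 of the 6 genes, and Zfp36l2 is not analysed here because no named probe for it was available. Of the 11 probes, 7 were detected on all 8 arrays, 1 on 3 arrays and 3 on 0 arrays. The filter on detection (detection p under 0.05 on at least 2 arrays) left 8 of these probes and 4 of the genes, Zfp36, Zfp36l1, Zc3h12a and Btg1, among 10021 probes and 7916 genes in all.

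The series profiled sorted CD4 T cells of C57B6 mice on Illumina bead arrays, with 1 array for each of 8 pooled samples. Mice of the genotype K14Aβb, FOXP3GFP (K14 below) lack MHC class II outside the thymus, and the controls were MHCII+/-, FOXP3GFP, so that both genotypes carried the FOXP3GFP reporter. From the small intestine (gut) and the spleen of each, live TCRb+CD4+CD8-B220- cells were sorted into GFP+ regulatory T cells (Treg) and GFP- conventional T cells (Tcon). Sorted cells from a number of males and females, 7 to 14 weeks old, were combined in every sample, and a single array stands for each combination of tissue, genotype and cell type. P-values therefore measure only the spread between these arrays, and in pooled cells fewer cells of a type and less RNA per cell cannot be told apart. Cells of each tissue were prepared on their own, so tissue and preparation cannot be told apart.

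ZFP36 (tristetraprolin) and its paralogs ZFP36L1 and ZFP36L2 are zinc-finger proteins that bind AU-rich elements in the 3' untranslated region of cytokine and cell-cycle transcripts and bring in the CCR4-NOT deadenylase complex, which removes the poly(A) tail. ZC3H12A (Regnase-1) is an endonuclease that cuts stem-loops in transcripts of T cell activation, and it is itself cut by the MALT1 protease after antigen receptor signalling. BTG1 and BTG2 bind the catalytic subunits of CCR4-NOT and are known for keeping T cells quiescent.

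Zfp36 and several of its relatives are early response genes in many cell types, so the 250 bases before each annotated start are shown for the 4 genes with a tested probe. The sequences are from RefSeq on GRCm38.p6, which held 5 of the 6 genes, and are written 5' to 3' on the strand of the gene. Capitals mark matches to TATAAA on the gene strand (the core of a TATA box), to TGACGTCA (a cyclic AMP response element), to TGANTCA (an AP-1 site), to a CCAAT box as its name spells it, to a CArG box or to an NF-kB site, the last 5 on either strand.
Zfp36 (chr7:28379229-28379478, minus strand): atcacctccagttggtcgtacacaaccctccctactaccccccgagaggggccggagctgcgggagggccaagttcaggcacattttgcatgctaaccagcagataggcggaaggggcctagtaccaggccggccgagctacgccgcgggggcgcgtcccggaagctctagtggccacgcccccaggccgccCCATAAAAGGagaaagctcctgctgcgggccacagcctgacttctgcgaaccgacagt
Zfp36l1 (chr12:80113014-80113263, minus strand): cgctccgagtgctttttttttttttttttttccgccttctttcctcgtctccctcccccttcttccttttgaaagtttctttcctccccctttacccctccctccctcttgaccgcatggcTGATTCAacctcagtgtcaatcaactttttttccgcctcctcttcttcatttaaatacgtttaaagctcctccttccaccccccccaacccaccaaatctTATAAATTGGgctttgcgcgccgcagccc
Zc3h12a (chr4:125127882-125128131, minus strand): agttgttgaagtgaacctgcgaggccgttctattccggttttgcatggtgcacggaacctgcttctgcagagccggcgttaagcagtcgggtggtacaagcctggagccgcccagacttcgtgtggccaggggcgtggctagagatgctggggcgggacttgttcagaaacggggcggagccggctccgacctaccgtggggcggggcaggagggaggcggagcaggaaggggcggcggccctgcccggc
Btg1 (chr10:96616751-96617000, plus strand): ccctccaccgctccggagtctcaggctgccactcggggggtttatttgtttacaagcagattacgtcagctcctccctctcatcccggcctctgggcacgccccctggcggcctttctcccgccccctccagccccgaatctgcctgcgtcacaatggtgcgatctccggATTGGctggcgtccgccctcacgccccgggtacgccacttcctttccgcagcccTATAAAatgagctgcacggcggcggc

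The 4 windows differed in what they held. The Zfp36 window had a CArG box, the sequence bound by serum response factor, 58 bases before the start, a match found in 1.47% of 32851 windows of the same length. The Zfp36l1 window had an AP-1 match 129 bases before the start (6.75% of windows) and a TATA box at 29 bases (7.59% of windows), whose last base is also the first of a reversed CCAAT box (33.8% of windows). The Zc3h12a window had none of the capitalised matches and 5 copies of the GC box GGGCGG, not capitalised here, which 32.7% of windows held on either strand. The Zfp36 window had 1 such GC box, the Btg1 window 2, the Btg2 window 3 and the Zfp36l1 window 0. The Btg1 window had a TATA box 26 bases and a reversed CCAAT box 80 bases before the start. The Btg2 window, not shown, had a cyclic AMP response element 166 bases before its start, found in 1.55% of windows, and no window of the 5 had an NF-kB match, which 3.9% of windows held. A match is a description of these letters and not evidence that a factor binds there.

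The arrays differed little in depth of detection, with 8822 to 9677 probes detected per array. The highest signal of an array was 70145 to 72192 units on all 8 arrays, so any signal above 60000 units was read as a lower bound. Such signals occurred for 109 probes in all, among them 3 of the 11 probes described here. The sorted populations carried their markers: all 6 named CD4 T cell markers were detected on all 8 arrays, and of 8 Treg markers, Nrp1, Il2ra and Tnfrsf18 were higher in Treg than in Tcon (limma, adjusted p = 0.0405, 0.0409 and 0.0405). Il2ra was detected on 4 of the 8 arrays, with 485.5 to 892.6 units on Treg and 195.2 to 238.6 units on Tcon arrays. It passed the detection filter through the Treg arrays, so its call is no separate support for the sort. The Foxp3 probe did not separate the sort, with 274 to 332 units on Treg arrays and 292 to 323 units on Tcon arrays. Of markers of other cells, exocrine pancreas genes were detected (12 of 12) on the control gut Tcon array, with a summed level of 64318 units there and 3322 units or less on the other 7 arrays. Summed epithelial markers were 1428 to 4978 units on gut arrays and 605 to 678 units on spleen arrays. Summed myeloid markers reached 51265 and 50131 units on the K14 spleen Treg and Tcon arrays, against 12832 and 15317 units on the control spleen arrays, and 16837 and 27773 units on the K14 gut arrays, against 11137 and 20141 units on the control gut arrays. Although the sort removed B220+ cells, summed B cell markers were 17026 and 9364 units on the K14 spleen Treg and Tcon arrays and 5697 and 2885 units on the control ones. They were 7339 and 1975 units on the K14 gut Treg and Tcon arrays and 4097 and 1320 units on the control ones. The sum was thus higher in Treg than in Tcon, and in K14 than in control, in all 4 pairs. Of 6 named B cell markers, 2 to 4 were detected on an array. Of the 3 tested, Cd79b alone was higher in Treg and in K14 in 4 of 4 pairs. Cd22 and Cd79a were each higher in Treg in 2 of 4 pairs and in K14 in 3 of 4 pairs.

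Zfp36 was the member with the clearest difference, and it separated the tissues. Its probe gave 71108 and 65345 units in K14 gut Treg and Tcon and 69535 and 57754 units in control gut Treg and Tcon. In the spleen it gave 29851 and 26537 units in K14 Treg and Tcon and 33327 and 25596 units in control Treg and Tcon. Every gut array was above every spleen array, and 3 of the 4 gut signals were above 60000 units. The share of all genes with gut and spleen arrays apart in this way was not counted, here and for the probes below. After normalization the level in gut cells was 2.32-fold that in spleen cells, with a log2 difference of 1.21 ± 0.15 (SE, 4 pairs), a size that rests on those 3 signals near the top of the scale. The difference lay between 1.10 and 1.34 in the 4 pairs of one genotype and cell type, and limma with the pairs as blocks gave an adjusted p of 0.0340 over all 7916 genes. Zfp36 was the only one of the 4 tested members to pass, while 2.37% of all tested genes passed. The call needed all 4 pairs: without any one pair the difference stayed at 1.17 to 1.25 and the adjusted p was 0.0952 to 0.133.

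**Figure D1:**
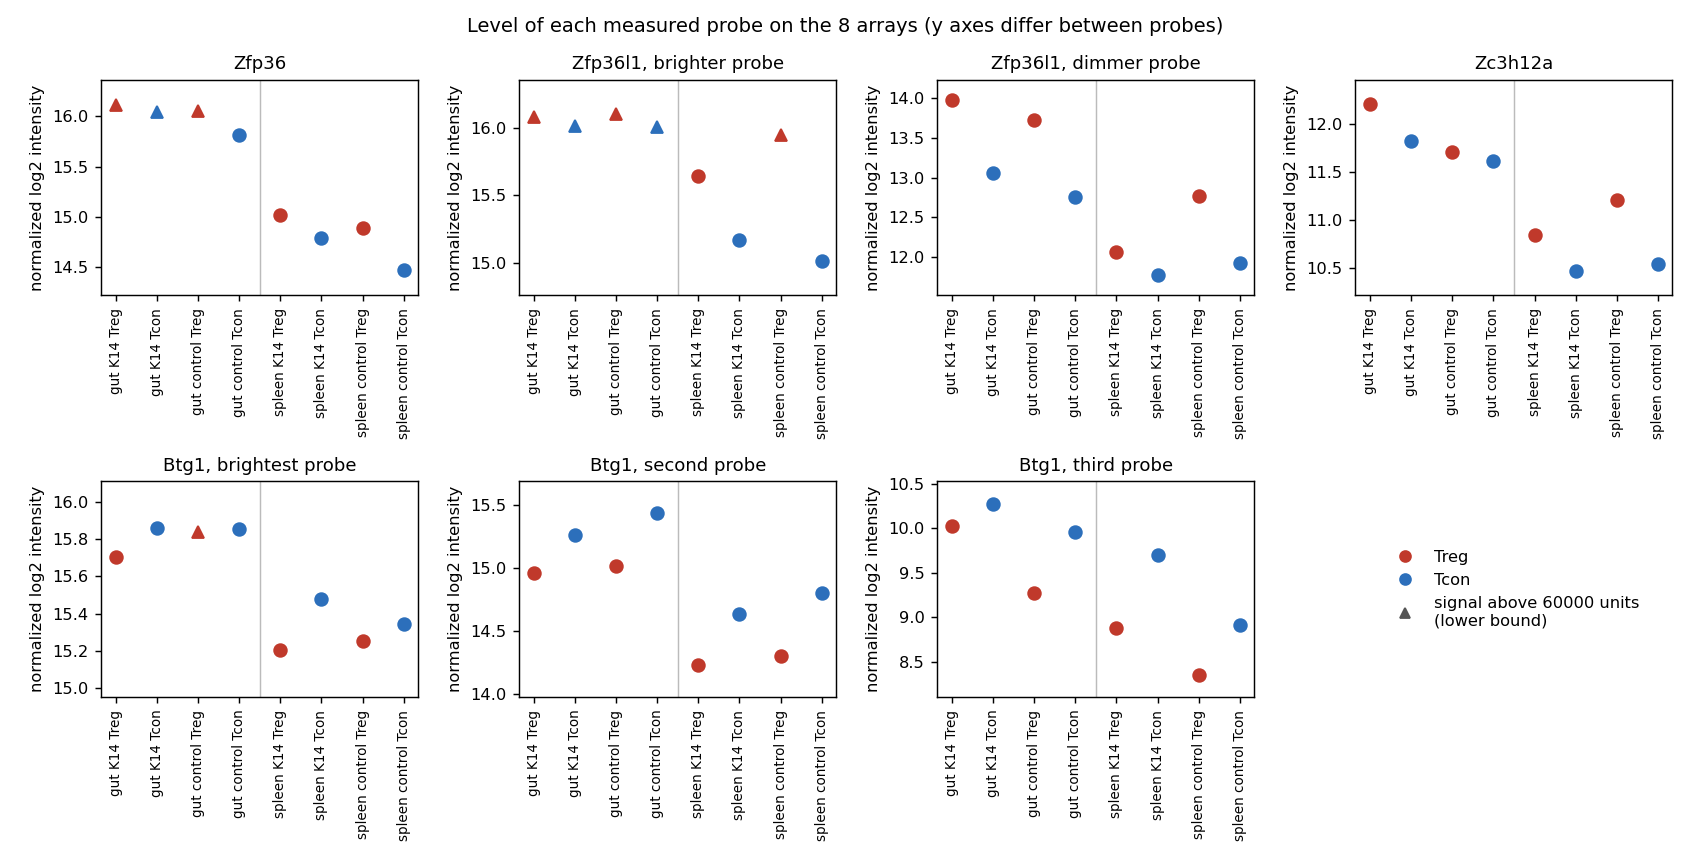
Normalized log2 intensity (y axis) of the 7 member probes detected on all 8 arrays, by array (x axis), with Treg in red, Tcon in blue and triangles for signals above 60000 units. Zfp36, Zc3h12a and the brightest and second Btg1 probes have every gut array above every spleen array, as does the brighter Zfp36l1 probe, whose gut signals and control spleen Treg signal are all triangles, while the dimmer Zfp36l1 probe and the third Btg1 probe overlap between tissues. The share of all genes without such overlap was not counted.

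Zfp36l1, the paralog of Zfp36 that binds the same AU-rich elements, was measured by probes of very different brightness, and these did not give the same picture. The brighter probe (ILMN_2780424), which stands for the gene in the fit across genes, gave 68548 and 64434 units in K14 gut Treg and Tcon and 71224 and 66018 units in control gut Treg and Tcon. On the spleen arrays it gave 45114 and 35219 units in K14 Treg and Tcon and 65423 and 38170 units in control Treg and Tcon. All 4 gut signals and the control spleen Treg signal were above 60000 units, so 5 of its 8 values are lower bounds, and the units of the gut and spleen arrays overlapped there. Its log2 difference between gut and spleen was 0.60 ± 0.20 (adjusted p = 0.161). Since signals on both sides were near the top of the scale, no fold is drawn from it.

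The dimmer Zfp36l1 probe (ILMN_1247853) had no signal above 17386 units. It gave 17386 and 7949 units in K14 gut Treg and Tcon and 14769 and 7066 units in control gut Treg and Tcon. In the spleen it gave 3658 and 3241 units in K14 Treg and Tcon and 7957 and 4475 units in control Treg and Tcon. The gut Treg arrays stood above all others, and the control spleen Treg array overlapped the gut Tcon arrays. On the normalized log2 scale the difference between gut and spleen was 1.25 ± 0.23 (2.38-fold, 4 of 4 pairs), with an adjusted p of 0.0642 over 10021 probes, so it did not pass. The pair difference was highest in K14 Treg, at 1.92, and lowest in control Tcon, at 0.84. Over the 8 arrays the log2 values of the 2 probes had a Pearson r of 0.85 and a Spearman rho of 0.93, as a description of probes read on the same arrays.

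**Figure D2:**
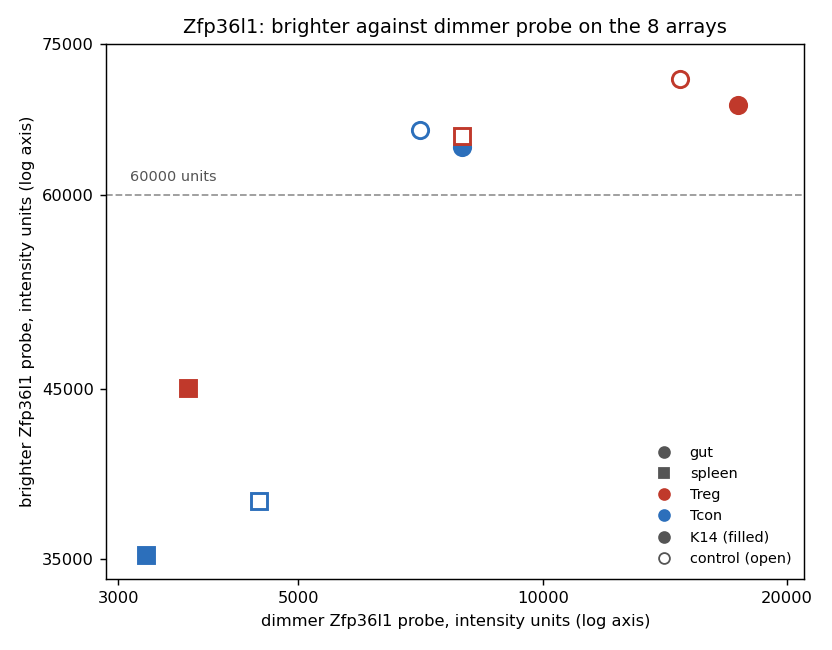
Intensity of the brighter Zfp36l1 probe (y axis, units, log axis) against the dimmer one (x axis, units, log axis) on the 8 arrays, with circles for gut, squares for spleen, red for Treg, blue for Tcon, filled for K14 and open for control. Above the dashed line at 60000 units the brighter probe spans 64434 to 71224 units while the dimmer one spans 7066 to 17386 units.

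Zc3h12a, which encodes the endonuclease Regnase-1, was measured well below the top of the scale. Its detected probe gave 5286 and 3380 units in K14 gut Treg and Tcon and 3935 and 3327 units in control gut Treg and Tcon. In the spleen it gave 1647 and 1390 units in K14 Treg and Tcon and 2850 and 1839 units in control Treg and Tcon. Every gut array was above every spleen array, with K14 gut Treg the highest of the 8. The log2 difference between gut and spleen was 1.08 ± 0.21 (2.11-fold, 4 of 4 pairs, adjusted p = 0.0682), which did not pass. It passed under 4 of its 13 alternative treatments of the data, for example with an adjusted p of 0.0424 on the authors' deposited log2 values. A further Zc3h12a probe was detected on 0 arrays (176.7 to 214.7 units).

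Btg1, the adaptor of CCR4-NOT that is abundant in resting lymphocytes, had 3 probes detected on all arrays. The brightest (ILMN_2866185) gave 55993 and 54054 units in K14 gut Treg and Tcon and 60704 and 59905 units in control gut Treg and Tcon. In the spleen it gave 33391 and 43071 units in K14 Treg and Tcon and 42653 and 47393 units in control Treg and Tcon. Again the gut arrays did not overlap the spleen arrays, although 1 gut signal was above 60000 units. Its log2 difference between gut and spleen was 0.49 ± 0.15 (4 of 4 pairs, adjusted p = 0.129). The second probe (ILMN_2866189), free of such signals, gave 32732 to 44406 units in the gut, all above its 17010 to 32556 units in the spleen, with a difference of 0.67 ± 0.15 (adjusted p = 0.0829 over probes). The third (ILMN_2705119), far dimmer at 549 to 1370 units, gave 0.92 ± 0.17 (adjusted p = 0.0644 over probes), and on the normalized scale its gut and spleen arrays overlapped, at 9.28 to 10.28 and 8.35 to 9.70. None of the 3 passed. The fourth Btg1 probe was detected on 3 arrays, all of the gut, at 216.2 to 405.9 units over the 8 arrays. Its difference was 0.97 ± 0.23 (adjusted p = 0.0958). It passed the detection filter through those gut arrays, so the direction of its difference is no separate support.

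Btg2, the paralog of Btg1, could not be followed. Its probe gave 169.7 to 248.2 units with detection p-values of 0.145 to 0.776, so it was not detected on any array. The third Zfp36l1 probe behaved alike, at 161.2 to 206.9 units.

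Set against the whole table, the 4 tested members were all higher in gut than in spleen cells in 4 of 4 pairs, as were 14.3% of all tested genes, and 20.0% were lower in 4 of 4 pairs. The 7 member probes detected on all 8 arrays had the same direction. So did the fourth Btg1 probe, but it passed the detection filter through gut arrays only, so its direction adds no support. The members' median log2 difference was 0.84, and that of all genes was -0.07. All 4 members had an unadjusted p under 0.05 in this comparison, as did 1906 of the 7916 genes in limma. Without the pair that holds the control gut Tcon array, where pancreas genes were detected, the differences were 1.17 for Zfp36, 1.08 for Zc3h12a and 0.49 for Btg1. For the brighter Zfp36l1 probe the difference was then 0.48, against 0.60 with all pairs. The part of the epithelial markers, which also ran higher on gut arrays, was not tested.

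**Figure D3:**
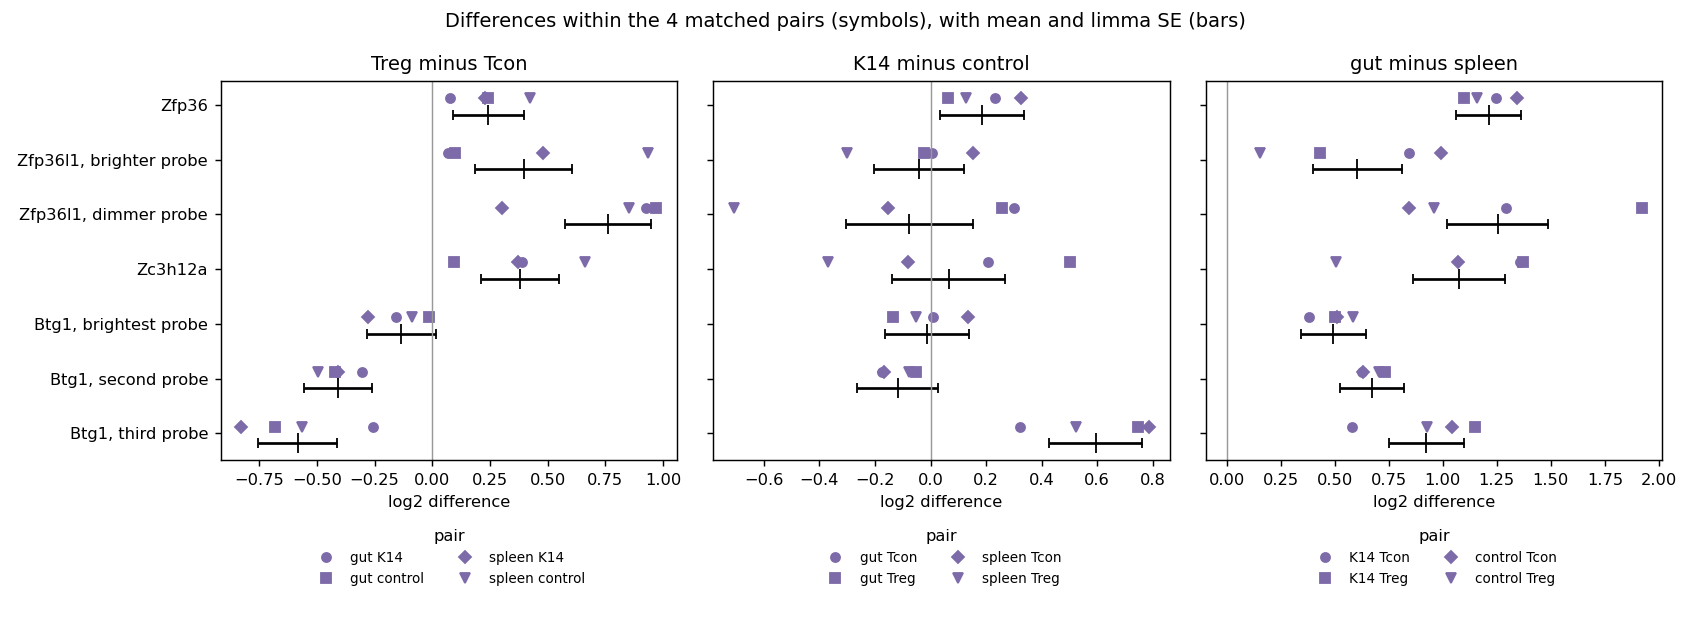
Log2 differences (x axes) of the 7 member probes (rows) in Treg minus Tcon, K14 minus control and gut minus spleen, with symbols for the 4 matched pairs and black bars for the mean and its SE from limma. All gut minus spleen symbols lie right of 0, the Treg minus Tcon symbols lie right of 0 for Zfp36, Zfp36l1 and Zc3h12a and left of 0 for Btg1, and the K14 minus control symbols lie on both sides for 4 of the 7 probes.

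Between cell types, the zinc-finger and endonuclease genes leaned towards Treg and Btg1 towards Tcon, and none of these differences passed the test. The dimmer Zfp36l1 probe had the largest, with a Treg minus Tcon log2 difference of 0.76 ± 0.19 (1.70-fold, 4 of 4 pairs, adjusted p = 0.188 over probes). In the gut that difference was 0.93 in K14 and 0.97 in control cells, and in the spleen 0.30 in K14 and 0.85 in control cells. The brighter probe gave 0.07 in K14 and 0.10 in control cells of the gut, where all its signals were above 60000 units. In the spleen it gave 0.48 in K14 and 0.93 in control cells. The test of whether the cell type difference differed between tissues gave opposite signs for these probes, 0.37 ± 0.36 for the dimmer (adjusted p = 0.905) and -0.62 ± 0.33 for the brighter (adjusted p = 0.780), and passed for neither.

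Zc3h12a differed by 0.38 ± 0.16 (adjusted p = 0.366) and Zfp36 by 0.24 ± 0.15 (adjusted p = 0.502) between Treg and Tcon, each higher in Treg in 4 of 4 pairs. In the K14 gut pair both Zfp36 signals were above 60000 units. Its difference there was 0.075, and -0.007 on the authors' deposited log2 values. On the normalized scale Btg1 was lower in Treg in 4 of 4 pairs on each of its 3 probes detected on all arrays. The differences were -0.13 ± 0.14 on the brightest (adjusted p = 0.710), -0.41 ± 0.15 on the second (adjusted p = 0.301) and -0.58 ± 0.17 on the third (adjusted p = 0.231). In units the brightest probe was higher in Treg in both gut pairs, at 55993 against 54054 in K14 and 60704 against 59905 in control. The third was so in the K14 gut pair, at 1370 against 1304. The fourth probe was lower in Treg in 3 of 4 pairs. Of all tested genes 0.707% passed, 11.8% were higher in Treg in 4 of 4 pairs and 13.7% were lower in 4 of 4 pairs. Of the members, 0 of 4 passed and 0 had an unadjusted p under 0.05 in the limma fit across genes, while 3 were higher and 1 was lower in 4 of 4 pairs. That fit takes the brightest probe of each gene. In the limma fit over probes the unadjusted p was 0.00847 for the dimmer Zfp36l1 probe. It was 0.0376 for the second and 0.0177 for the third Btg1 probe, and none passed after adjustment. The summed B cell markers also ran higher on Treg arrays, with Cd79b the only tested one higher in 4 of 4 pairs. Their part was not tested.

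Between the genotypes, no member passed the test. Zfp36 was 0.19 ± 0.15 higher in K14 than in control cells on the normalized scale (1.14-fold, adjusted p = 0.793), with 4 of 4 pairs in that direction and a range of 0.06 to 0.32. Both gut Treg signals and the K14 gut Tcon signal were above 60000 units, so this size rests in part on lower bounds. In units the spleen Treg signal was lower in K14, at 29851 against 33327. Zfp36l1 differed by -0.04 ± 0.16 on the brighter probe and by -0.08 ± 0.23 on the dimmer one, Zc3h12a by 0.06 ± 0.20 and Btg1 by -0.01 ± 0.15 on its brightest probe. Across all genes 0% passed in limma (634 had an unadjusted p under 0.05, none of them a member), 7.88% were higher in K14 in 4 of 4 pairs and 8.62% were lower.

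The Btg1 probes did not give one sign for the genotype. The third probe was higher in K14 cells in 4 of 4 pairs (0.59 ± 0.17, limma over probes, unadjusted p = 0.0144, adjusted p = 0.547). The second was lower in 4 of 4 pairs (-0.12 ± 0.15, adjusted p = 0.892), and the brightest was split. No direction is therefore given for Btg1. The dimmer Zfp36l1 probe and the Zc3h12a probe were higher in K14 than in control cells in both gut pairs and lower in both spleen pairs. For Zfp36l1 the K14 minus control difference was 0.26 in gut Treg, 0.30 in gut Tcon, -0.71 in spleen Treg and -0.15 in spleen Tcon. For Zc3h12a it was 0.50 in gut Treg, 0.21 in gut Tcon, -0.37 in spleen Treg and -0.08 in spleen Tcon. With 2 residual degrees of freedom, the difference between tissues was 0.71 ± 0.36 for Zfp36l1 (limma, adjusted p = 0.841) and 0.58 ± 0.33 for Zc3h12a (adjusted p = 0.877), and neither passed. The summed myeloid and B cell markers were higher on K14 than on control arrays in both tissues, and their part in these values was not tested. In each of the 3 tests of a difference between differences 0% of genes passed in limma, while 576 genes (cell type by tissue), 386 (genotype by cell type) and 493 (genotype by tissue) had an unadjusted p under 0.05.

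The transcripts and the machinery that these factors act on were followed in lists of related genes, each given beside the median of all genes, -0.07 for gut minus spleen. Immediate early genes, the class to which Zfp36 belongs, were higher in gut cells for 14 of 15 tested genes of the 20 listed, and 9 of them passed, where 2.37% of all tested genes passed. Their median log2 difference was 2.32, or 1.43 on the authors' deposited log2 values. The transcription factor genes Fosb (4.79 ± 0.37), Atf3 (3.88 ± 0.26), Fos (3.76 ± 0.22) and Jun (3.31 ± 0.48) had the highest fitted differences (limma, adjusted p = 0.0139, 0.0110, 0.0103 and 0.0461). Atf3 was detected on 4 of the 8 arrays, with 650 to 1298 units in gut cells and 166 to 193 units in spleen cells, and Fosb on 5, with 1450 to 4638 units in gut cells and 210.4 to 313.5 units in spleen cells. Klf4, also among the 9 calls, was detected on 5 arrays, with 495.1 to 1609.4 units in gut cells and 222.7 to 286.6 units in spleen cells. Nr4a3, higher but not called, was detected on 2. All of these passed the detection filter through the gut arrays, against spleen signals at or near background. The size and rank of their differences are therefore not measured on both sides. They add no support to the counts of 14 and 9.

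Textbook target transcripts of ZFP36 or ZC3H12A ran in the same direction as the factors. Of 21 listed, of which Ctla4 and Tnfrsf4 also stand among the Treg markers, 16 were tested, 15 were higher in gut cells and 6 passed, against 2.37% of all tested genes, with a median log2 difference of 2.06. The highest fitted differences were those of the cytokine genes Il10 (6.43 ± 0.50, adjusted p = 0.0139) and Ifng (3.83 ± 0.42, adjusted p = 0.0272), the checkpoint receptor gene Ctla4 (3.69 ± 0.84, adjusted p = 0.0858, not passing) and the chemokine gene Ccl4 (3.66 ± 0.37, adjusted p = 0.0245). Il10 (64726 and 71075 units) and Ctla4 (61624 and 66353 units) were above 60000 units on the gut Treg arrays of K14 and control mice, so the sizes of their differences rest on signals near the top of the scale and their order is not given. Among the 15 higher targets, Rel and Csf2 were detected on 4 arrays each, Ccl3 on 3 and Il17a on 2. None of these passed. In that order their spleen signals were 189.3 to 294.1, 173 to 302, 166.9 to 229.1 and 222.4 to 291.8 units, at or near background. They met the detection filter mainly through gut arrays, so they add no support to the count of 15 or to the median of 2.06. Levels of transcripts do not show their decay, which was not measured.

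The genes of the decay machinery had 0 calls among them, and with 2.37% of all tested genes called, this is near the background for lists of this size. Of CCR4-NOT and PAN deadenylase genes 11 of 17 were tested, with 7 higher and 4 lower in gut cells, a median log2 difference of 0.07 (-0.04 to 0.14 with 1 pair left out), and 0 past the test in limma, where 1906 of all genes had an unadjusted p under 0.05. Decapping genes had a median of -0.18 (1 higher and 5 lower of 6 tested), RNA exosome genes -0.28 (1 higher and 9 lower of 10 tested) and other AU-rich or stem-loop binding proteins -0.09 (3 higher and 4 lower of 7 tested), again with 0 past the test. The member of these lists nearest to passing was Tial1, an AU-rich binding protein gene, at 0.97 ± 0.16 (adjusted p = 0.0521). Tial1 was detected on 6 of the 8 arrays, with 372 to 539.5 units in gut cells and 269.6 to 323.9 units in spleen cells. The spleen signals were near background, so the size of its difference is not firm. The BTG and TOB relatives Btg3, Btg4, Tob1 and Tob2 had 0 of 4 genes past the detection filter. Between Treg and Tcon and between K14 and control, 0 genes of any of these lists passed. In Treg minus Tcon the medians of the targets and of the immediate early genes were -0.09 and 0.10, and in K14 minus control they were -0.04 and 0.46. The K14 minus control median of the immediate early genes was above the median of every single pair (-0.01 to 0.32) and was 0.27 on the authors' deposited log2 values. The Treg minus Tcon median of the targets was -0.53 when every detected probe was counted.

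**Figure D4:**
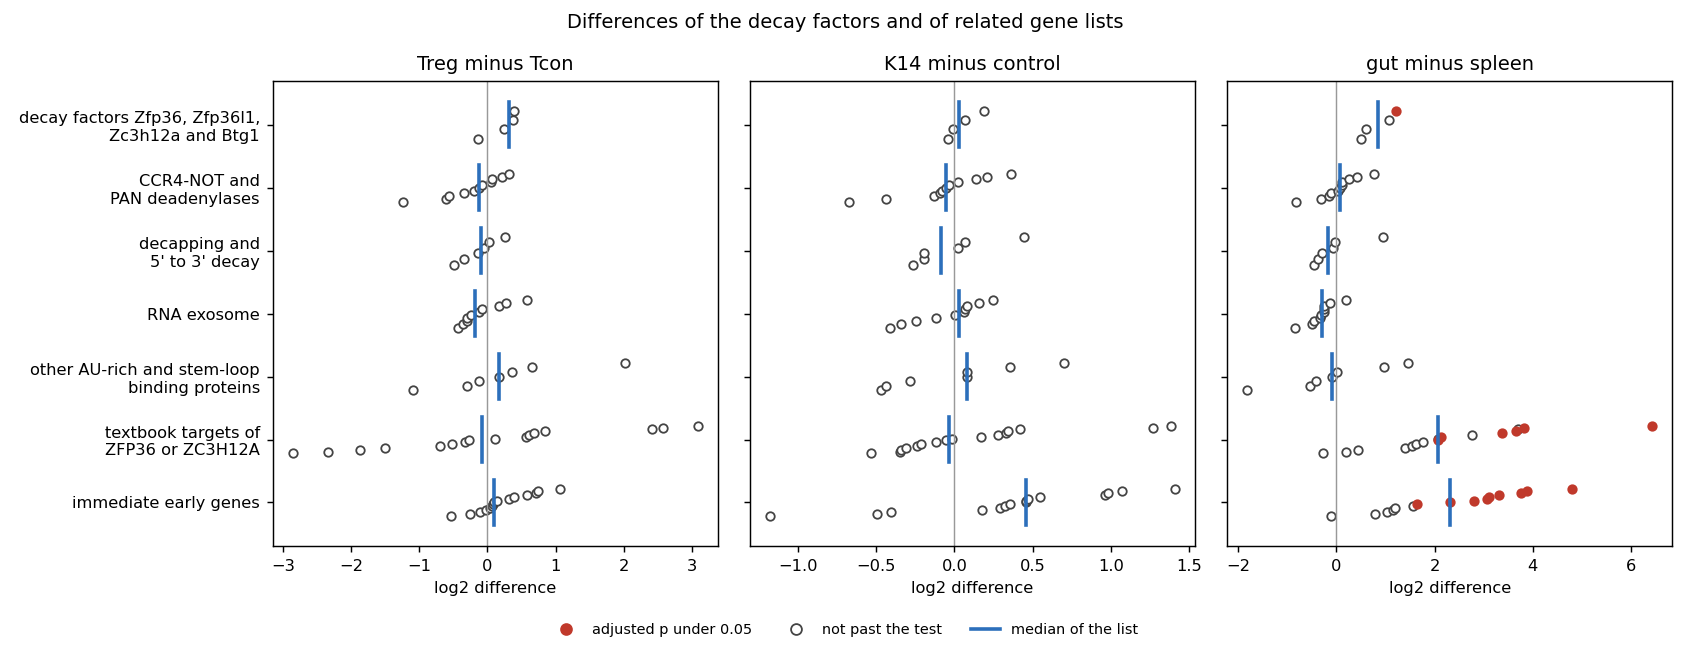
Log2 differences (x axes) of the 4 tested decay factors and of the tested genes of 6 related lists (rows) in Treg minus Tcon, K14 minus control and gut minus spleen, with red points for an adjusted p under 0.05, open points for the rest and a blue bar at each median. Red points occur in gut minus spleen alone, with 9 immediate early genes, 6 textbook targets and Zfp36.

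Likeness of level over the 8 arrays was described for each member probe. Among 5401 named genes detected on all arrays, those with the highest Pearson correlation to Zfp36 were Cd69, an early activation antigen (0.992), Nfkbiz, an atypical IkB gene whose transcript is itself a Regnase-1 target (0.991), and Irf1 (0.990). The dimmer Zfp36l1 probe was most like Mmd (0.984), Ttf2 (0.968) and Mical1 (0.966), while the brighter was most like Ctla4 (0.973), Socs2 (0.972) and Irf4 (0.967). Zc3h12a was most like Stat4 (0.986), Apaf1 (0.973) and Adam19 (0.972). The Btg1 probes again had no partner in common: the brightest was most like Asb2 (0.964), Tpst2 (0.963) and Bhlhe40 (0.957), the second like Gpr171 (0.975), Galnt2 (0.952) and Ptk2b (0.951), and the third like H3c1 (0.977), Actn2 (0.955) and H3c4 (0.939). These values describe 8 points that share arrays and a tissue contrast. Signals above 60000 units enter them for Zfp36 (3 of 8), the brighter Zfp36l1 probe (5 of 8) and the brightest Btg1 probe (1 of 8), and for the partners Cd69, Irf1, Ctla4 and Asb2, so the order of likeness is not firm for these probes.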

How the data were processed

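RNA of 8 pooled samples was measured on 8 Illumina mouse bead arrays. The authors deposited linear probe intensities, each with a detection p-value, per the file headers; their background correction is not given in the sources used here. The authors' second table holds log2 values, whose normalization and centring are not stated, and these served as an alternative. In R 4.3.3 with limma 3.58.1, limma's nec removed the background (normexp, with parameters inferred from the detection p-values) and added an offset of 16, before quantile normalization and log2. Probes were named from the platform annotation, with 23978 of 25697 having 1 symbol. A gene was represented by its probe of highest mean level, and all 10021 probes were also fitted one by one. Each comparison was fitted over 8 arrays with the 4 matched pairs as blocks, a pairing that follows from the labelled tissue, genotype and cell type, since the replicate numbers run with genotype. Benjamini-Hochberg adjustment covered all genes or all probes, at 0.05. The script was tested on simulated data. Promoter windows were searched in Python 3.11.15. All probes of the members were given, up to 4 genes of a list with the largest differences, and the 3 genes most like each probe. Tial1 was named after its value was seen, and Klf4, Nr4a3, Il17a, Ccl3, Csf2 and Rel for their low detection. The members, lists and tests were chosen with earlier results of these data known. The number of arrays limits the precision.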

Additional observations from a re-analysis of the deposited data

Results flagged for a closer look

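In 4 cases the K14 minus control difference took one sign in both pairs of a group and the opposite sign in both pairs of the other, which marked them for a closer look. The dimmer Zfp36l1 probe differed between gut and spleen by 0.71 ± 0.36 (limma over probes, adjusted p = 0.841), with gut pairs at 0.26 to 0.30 and spleen pairs at -0.71 to -0.15. Zc3h12a differed between gut and spleen by 0.58 ± 0.34 in the same fit (adjusted p = 0.880), with gut pairs at 0.21 to 0.50 and spleen pairs at -0.37 to -0.08. The brighter Zfp36l1 probe differed between Treg and Tcon by -0.24 ± 0.34 (adjusted p = 0.995), and 5 of its 8 signals were above 60000 units. The brightest Btg1 probe differed between Treg and Tcon by -0.17 ± 0.33 (adjusted p = 0.995). None of the 4 passed the test of the difference.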

How the results depend on the processing

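Of the tested member values under the alternatives, 460 kept their direction and side of the threshold, 14 passed where the reported value did not, 4 no longer passed and 23 turned sign. In gut minus spleen and in Treg minus Tcon the sign was kept in 12 of 12 alternatives for Zfp36 and in 13 of 13 each for Zfp36l1, Zc3h12a and Btg1. The 4 lost calls were Zfp36 in gut minus spleen without each matched pair, where 3 pairs remain; leaving out 1 pair at a time gave 0 members past the test. Members past the test numbered 3 with the authors' log2 values, 2 without background correction, 2 with detection on all 8 arrays, 2 with no replicate block and 0 with probes above 60000 units left out, where Zfp36 has no probe left to test. All genes past the test in gut minus spleen numbered 468 with the authors' values, 393 without background correction, 288 with an offset of 50, 125 without a detection filter, 373 with detection on all 8 arrays, and 0 to 33 when 1 pair was left out. In Treg minus Tcon they numbered 100, 106 and 2 with the authors' values, no background correction and no filter, 27 with no replicate block and 0 when 1 pair was left out. The immediate early median in gut minus spleen was 1.43 to 1.76 with the authors' values, no background correction, no filter or every detected probe, and in K14 minus control 0.27 with the authors' values or no background correction. The target median in K14 minus control was 0.12 without the spleen Treg pair, and the decapping median in gut minus spleen was -0.31 with every detected probe and -0.046 without a filter. The cause of these shifts was not tested.

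All sign changes concerned values that did not pass. In K14 minus control, leaving out 1 pair gave ranges of -0.11 to 0.045 and -0.20 to 0.13 for the brighter and dimmer Zfp36l1 probes, -0.081 to 0.21 for Zc3h12a and -0.060 to 0.030 for Btg1. In that comparison Zc3h12a was -0.060 with median centring. In the difference of the genotype effect between cell types, leaving out 1 pair gave -0.43 to 0.44 for Zc3h12a, -0.78 to 0.18 for the dimmer Zfp36l1 probe and -0.15 to 0.31 for the third Btg1 probe, and Btg1 was 0.0018 with median centring and 0.10 without probes above 60000 units. In its difference between tissues, leaving out 1 pair gave -0.18 to 0.019 for Zfp36, -0.16 to 0.29 for the brighter Zfp36l1 probe, -0.33 to 0.090 for the third and -0.051 to 0.069 for the second Btg1 probe. There the second Btg1 probe was -0.00039 with the authors' values, and Btg1 was 0.0089 without probes above 60000 units. The cell type difference between tissues was 0.37 for Zfp36l1 without probes above 60000 units, where the dimmer probe stands for the gene. The replicate block changed no other call than those given. Signals near the top of the scale limit Zfp36 and the brightest probes of Zfp36l1 and Btg1, whose values there are bounds.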
